A study of Mus musculus with 66 samples.

Results

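The comparison set 9 libraries of wild type (WT) mice collected in the dark hours after cocaine against 6 collected in the light hours after cocaine. It asked which transcripts of the nucleus accumbens differ between both phases of the day in mice that received cocaine early in the light phase. The dark libraries came from ZT15, ZT19 and ZT23 and the light libraries from ZT7 and ZT11, where ZT is zeitgeber time, the hours since lights on. These 15 libraries were chosen from 66 in the series by their labels, with earlier results of these data known. The ZT3 libraries were left out because those mice had not been treated. Genes with an FPKM (fragments of a transcript, scaled by its length and by the mapped fragments of the library) of at least 1 in at least 1 of the 15 libraries were tested, which held for 14243 of 24138 genes.

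Male mice, C57BL/6 in the labels and C57BL/6J in the study's methods, of 3 to 5 months were kept under 12 h of light and 12 h of darkness and received 20 mg/kg cocaine or saline into the peritoneum at ZT3. The accumbens, the ventral part of the striatum, was punched out every 4 h, and poly(A) RNA was sequenced with 3 libraries per group. The WT saline libraries of the same 5 time points (9 dark, 6 light) served as background, and 15 cocaine libraries of iMSN-D2RKO mice (9 dark, 6 light) were compared where stated. In iMSN-D2RKO mice both copies of the dopamine D2 receptor gene are floxed and Cre is driven by the D1 receptor promoter, and the study uses them as a model that lacks the receptor in indirect pathway medium spiny neurons. The labels do not say whether a library is 1 mouse or a pool, so p-values measure the spread between these libraries. All dark hours came later after the injection than all light hours, so the phase of the day and the time since cocaine cannot be told apart within the cocaine libraries. In this bulk tissue, fewer cells of a type and less RNA per cell cannot be told apart either.

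Mice are active mainly in the dark. Immediate early genes are transcribed within minutes when neurons are stimulated, without need of new protein, through factors such as CREB and SRF, and dopamine and cocaine are classical inducers of them in medium spiny neurons. They encode transcription factors (Fos, Jun, Egr and Nr4a families), synaptic proteins such as Arc, and feedback regulators such as the phosphatase Dusp1. The circadian clock runs beside them as a loop in which CLOCK and BMAL1 (gene Arntl) drive Per and Cry, whose proteins act back on their own transcription.

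Both dopamine receptor genes of medium spiny neurons were expressed in all 15 libraries, while markers of cortex and choroid plexus varied widely between them, as given below. Drd1, the D1 receptor gene, was at 78.1 to 119 FPKM in the light and at 56.7 to 114 in the dark libraries, and Drd2, the D2 receptor gene, was at 118 to 166 and at 99.1 to 304. Over 9584 genes, 1 axis held 43.6% of the variance within the groups of the series and set 13 of 66 libraries apart, with scores of 44.3 or more against 15.1 or less in the others. Of the WT cocaine libraries 3 of 9 dark and 0 of 6 light ones were set apart, namely ZT19 replicates 1 and 3 and ZT23 replicate 3. In WT saline it was also 3 of 9 dark and 0 of 6 light libraries. ZT15 replicate 3 (score 12.8) and ZT19 replicate 2 (15.1) lay between, and the 6 light libraries lay from -16.6 to -12.4. Relative depth was 0.985 to 1.23 in the light and 0.357 to 1.31 in the dark, with the lowest values in ZT15 replicate 3 and ZT19 replicate 1 (0.365). Total FPKM was 379897 to 413939 in the light and 364078 to 458223 in the dark.

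**Figure D1:**
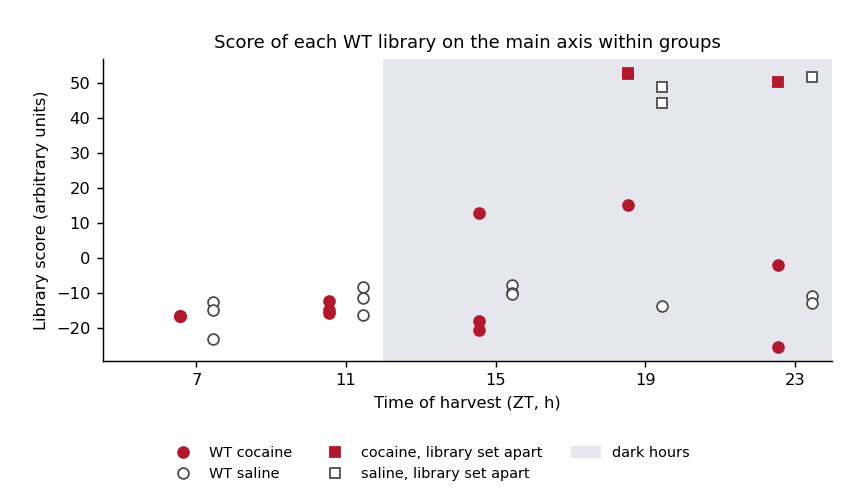
Score of each WT library (arbitrary units) on the main axis of the differences within groups, by time of harvest. Filled symbols are cocaine, open symbols saline, squares the set-apart libraries and shading the dark hours. All squares lie in the dark hours, at 44.3 or more.

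Across the 14243 genes, 1 gene passed limma's test at an adjusted p under 0.05 (0.00702%). This was Nr4a1, which rose in the dark, and 0 genes fell (0%). At an unadjusted p under 0.05 there were 2661 genes (18.7%), 1597 higher (11.2%) and 1064 lower (7.47%) in the dark. Leaving out the 3 set-apart libraries left 0 called genes (0%) and 757 at an unadjusted p under 0.05 (5.31%), 487 higher (3.42%) and 270 lower (1.9%). The count rested on how the spread was estimated. When each time point had its own mean, so that differences between hours of a phase no longer counted as spread, 733 genes were called (5.15%), 533 higher (3.74%) and 200 lower (1.4%). Without the 3 libraries of ZT15, 4740 genes were called, and without those of ZT7, ZT11 or ZT23 it was 0.

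Among all genes, 40 had cocaine libraries whose dark and light values did not overlap (0.281%), 26 of them higher (0.183%) and 14 lower in the dark (0.0983%). In WT saline it was 57 (0.4%) and 44 (0.309%), and in cocaine with the set-apart libraries dropped 48 (0.337%) and 23 (0.161%). The saline libraries are other mice. Of the 26 genes, 25 were also above 0 in saline dark minus light, against 58.4% of all genes, with a median log2 difference of 0.52 in cocaine and 0.29 in saline. Of the 14, 1 was above 0 in saline. Of the 1597 genes higher at an unadjusted p under 0.05, 99.2% were above 0 in saline, and of the 1064 lower ones 2.73%. Both sets of libraries hold set-apart libraries in the dark only, and the part of these in the shared direction was not tested.

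Of the 12 genes with the smallest p-values on the higher side, among those with a mean of at least 5 FPKM, 7 were immediate early genes (Nr4a1, Arc, Fos, Nr4a3, Egr1, Dusp1 and Egr2). This list, like the others, was drawn up with earlier results of these data known, so its shares describe it and are no independent support. Of the 17 in the list 1 was called, against 0.00702% of all genes. At an unadjusted p under 0.05, 10 of the 17 were higher in the dark and 0 lower, against 11.2% and 7.47% of all genes. Their median log2 difference was 0.74, against 0.06 for all genes. With the set-apart libraries left out the median was 0.59 and 12 were higher at an unadjusted p under 0.05, against 3.42% of all genes. In the fit with 1 mean per time point 9 were called higher, against 3.74% of all genes. Values were higher in the dark without overlap between phases for 4 of the 17, Nr4a1, Fos, Egr1 and Dusp1, against 0.183% of all genes.

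Promoters are shown for 4 of these genes because CREB, the cAMP-regulated activator, is a known route to them. They are the 250 bases before the start of transcription from RefSeq, build GRCm38.p6, in the direction of the gene, with each TGACG in capitals on either strand (CGTCA where it lies on the other strand). TGACG is the core of the cAMP response element TGACGTCA, and each full element therefore also counts as a core on both strands. Nr4a1 lies at chr15:101266596-101266845 (plus strand), Nr4a3 at chr4:48045055-48045304 (plus), Fos at chr12:85473640-85473889 (plus) and Dusp1 at chr17:26508473-26508722 (minus).
Nr4a1: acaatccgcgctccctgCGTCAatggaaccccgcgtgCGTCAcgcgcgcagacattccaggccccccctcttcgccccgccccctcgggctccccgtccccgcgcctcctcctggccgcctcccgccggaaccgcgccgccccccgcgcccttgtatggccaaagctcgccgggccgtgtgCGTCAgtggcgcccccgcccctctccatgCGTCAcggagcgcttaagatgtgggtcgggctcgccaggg
Nr4a3: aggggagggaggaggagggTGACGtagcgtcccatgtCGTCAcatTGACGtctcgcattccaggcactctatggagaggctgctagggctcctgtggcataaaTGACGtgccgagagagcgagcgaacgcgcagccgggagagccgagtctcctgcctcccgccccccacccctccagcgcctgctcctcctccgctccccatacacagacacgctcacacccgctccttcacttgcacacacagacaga
Fos: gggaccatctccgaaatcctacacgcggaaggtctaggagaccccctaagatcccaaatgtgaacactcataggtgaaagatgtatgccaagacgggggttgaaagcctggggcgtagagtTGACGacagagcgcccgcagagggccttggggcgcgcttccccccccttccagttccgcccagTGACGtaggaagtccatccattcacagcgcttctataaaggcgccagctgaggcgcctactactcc
Dusp1: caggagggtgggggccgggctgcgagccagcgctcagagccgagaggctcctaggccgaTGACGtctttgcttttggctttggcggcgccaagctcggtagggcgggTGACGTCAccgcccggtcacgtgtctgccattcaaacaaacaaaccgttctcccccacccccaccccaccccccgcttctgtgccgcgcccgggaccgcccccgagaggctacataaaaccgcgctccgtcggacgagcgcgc

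The core occurs 4 times before Nr4a1, each time on the other strand, 4 times before Nr4a3, 2 times before Fos and 3 times before Dusp1, where 1 full element is found. It is absent before Jun and Fosl2, whose log2 differences were 0.59 and 0.74. Fosb (-0.10) and Junb (0.35) have 1 core each, Egr4 (0.21) has 2 and Nr4a2 (0.80) has 4. Whether the motif goes with the difference between phases was not tested. Of the 17 genes 13 had a promoter in the table, with 17 promoters in all, 5 of them of Egr2. Of these 17 promoters 13 held TGACG, 2 the full TGACGTCA and 4, all of Egr2, a CArG box, the element bound by SRF. Several Egr2 promoters overlap almost fully, so the same bases count more than 1 time. By gene, 11 of 13 held TGACG and 1 a CArG box. The full element was held by 2 genes, Dusp1 and Btg2, the latter with a log2 difference of 0.31. Of all 32851 promoters of this length 17.8% held TGACG, 1.55% TGACGTCA and 1.47% a CArG box. A match describes these letters, not binding.

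Nr4a1 encodes an orphan nuclear receptor (Nur77) that is induced in striatal neurons by dopaminergic drugs. The gene (XLOC_007244) lies on chromosome 15 from 101253902 to 101274795. In the light it was at 36.0, 19.2 and 16.04 FPKM at ZT7 and at 17.5, 16.1 and 31.8 at ZT11. In the dark it was at 72.0, 73.9 and 102 at ZT15, at 48.5, 44.6 and 123 at ZT19, and at 71.6, 88.1 and 77.6 at ZT23. All 9 dark libraries lay above all 6 light ones, and ZT19 replicates 1 and 2 were the lowest of them. The means were 22.8 ± 8.81 FPKM (SD, n = 6) and 77.8 ± 24.3 (SD, n = 9), a 3.42-fold difference. On the scale of log2(FPKM + 1) Nr4a1 rose by 1.74 (SE 0.23, adjusted p = 0.0138). Without the set-apart libraries the log2 difference was 1.72 and the adjusted p 0.104. The call was also lost when ZT7 replicate 2 or 3 or ZT11 replicate 1 or 2 was left out, with adjusted p-values from 0.0738 to 0.0801 and log2 differences from 1.66 to 1.71.

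Its relatives differed among themselves. Nr4a3 (NOR-1) was at 1.18 to 4.67 FPKM in the light (median 2.58) and at 4.19 to 17.03 in the dark (median 7.36). Only ZT19 replicate 2 of the dark libraries lay below the highest light one, ZT11 replicate 3. The log2 difference was 1.32 (SE 0.27, adjusted p = 0.179). Nr4a2 (Nurr1), a receptor best known from midbrain dopamine neurons and also expressed in cortex, was at 0.356 to 13.99 FPKM in the light and at 2.42 to 21.1 in the dark. These ranges overlapped widely, with a log2 difference of 0.80 (SE 0.54, adjusted p = 0.398). It was 0.42 without ZT11 replicate 1, 0.48 without ZT7 replicate 3 and 0.32 with the set-apart libraries dropped.

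Arc, which encodes a synaptic protein of activity-dependent plasticity, was at 24.9, 39.4 and 32.3 FPKM at ZT7 and at 18.96, 18.1 and 20.8 at ZT11. At ZT15 it was at 57.8, 79.1 and 99.97, at ZT19 at 31.6, 42.7 and 142, and at ZT23 at 90.4, 132 and 98.1. The dark libraries were higher in all but ZT19 replicate 1, a set-apart library that lay within the ZT7 values. The log2 difference was 1.61 (SE 0.30, adjusted p = 0.128). Fos, the best known activity marker and a subunit of the factor AP-1, was at 1.34 to 3.64 FPKM in the light (median 3.18) and at 4.29 to 19.7 in the dark (median 9.47). Its phases did not overlap, and the log2 difference was 1.44 (SE 0.28, adjusted p = 0.128). Fosl2 and Jun, partners in AP-1, gave 0.74 (SE 0.20, adjusted p = 0.242) and 0.59 (SE 0.14, adjusted p = 0.242), with Jun at 10.9 to 15.2 FPKM in the light and 14.9 to 27.8 in the dark. Fosb gave -0.10 (SE 0.18) and Junb 0.35 (SE 0.24, and 0.56 with the set-apart libraries dropped), and both overlapped between phases.

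The Egr genes, zinc finger factors, split in the same way. Egr1 was at 58.0 to 95.4 FPKM in the light (median 73.3) and at 111 to 491 in the dark (median 156), with no overlap and a log2 difference of 1.31 (SE 0.27, adjusted p = 0.189). Without the set-apart libraries, which held the 491 of ZT19 replicate 3, it was 1.02. Egr2 was at 1.33 to 3.27 FPKM in the light and at 2.46 to 18.6 in the dark, and only ZT19 replicate 2 of the dark libraries lay within the light values (log2 difference 1.33, SE 0.29, adjusted p = 0.224). Egr3 was at 50.4 to 113 and at 35.8 to 95.3 FPKM, a log2 difference of -0.02 (SE 0.22), and Egr4 gave 0.21 (SE 0.33), which ran from 0.077 without ZT15 replicate 3 to 0.42 without ZT19 replicate 1. Dusp1, a phosphatase that switches off MAP kinases, was at 12.98 to 15.8 FPKM in the light and at 18.8 to 41.3 in the dark. The phases did not overlap, and its log2 difference was 0.73 (SE 0.15, adjusted p = 0.203). Npas4, a factor induced by calcium influx, gave 1.14 (SE 0.41, adjusted p = 0.242) with its highest values, 29.96 and 25.6 FPKM, in ZT15 replicate 3 and ZT19 replicate 3.

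**Figure D2:**
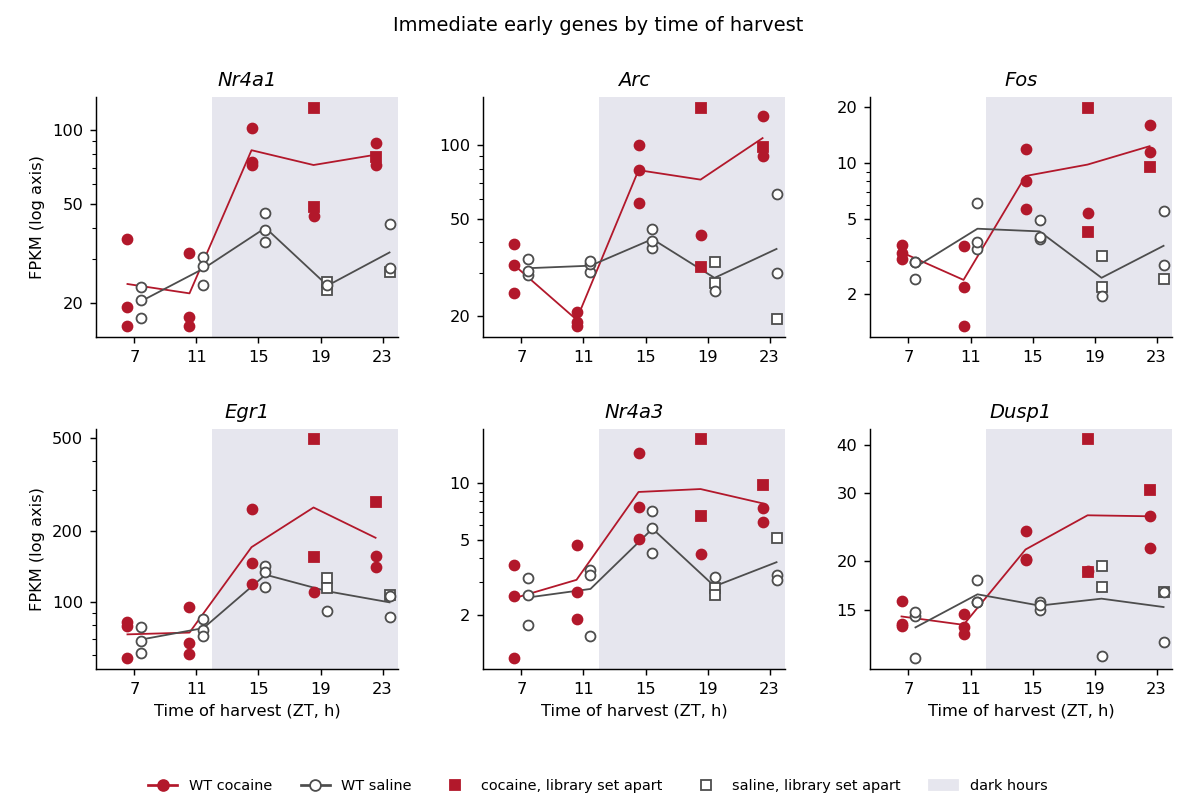
FPKM (log axis) of 6 immediate early genes by time of harvest, 1 symbol per library and lines through the means of 3 libraries. Cocaine libraries (filled) of the dark hours (shaded) lie above those of the light hours for Nr4a1, Fos, Egr1 and Dusp1, while saline libraries (open) overlap between phases for all but Egr1. Squares are the set-apart libraries.

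The hours of the dark were not alike. At ZT15 the median log2 difference of the 17 genes from the light libraries was 1.01 (all genes 0.01), at ZT19 0.77 (0.09) and at ZT23 0.87 (0.05). These 3 differences share the light libraries. At ZT15 9 of 17 were higher at an unadjusted p under 0.05, against 2.11% of all genes, while 0 genes in all passed the adjusted test (0%) and 541 the unadjusted one (3.8%). At ZT19 7 of 17 rose (Nr4a1, Nr4a3, Fos, Jun, Arc, Egr1 and Dusp1, adjusted p-values from 0.0023 to 0.0196) and 0 fell, against 22.4% and 13.6% of all genes. At ZT23 13 of 17 were higher at an unadjusted p under 0.05, against 10.4% of all genes. Within ZT19 the libraries spread the most: the median of the 17 genes stood 0.34, 0.09 and 1.49 above the mean of the light libraries in replicates 1, 2 and 3, against 0.54 to 1.26 at ZT15 and 0.94 to 1.07 at ZT23. Between ZT7 and ZT11 some lists shifted, though no gene was called. All 10 oligodendrocyte markers (median log2 difference -0.45) and all 9 microglia markers (-0.38) were lower at ZT11. All 5 cortex markers were higher (0.61), against a median of -0.01 over all genes. For ZT11 minus ZT7, 0 of 14243 genes passed the adjusted test (0%), 128 the unadjusted one (0.899%) and 0 of the 17 genes either.

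In WT saline 15 of the 17 genes had a smaller log2 difference than in cocaine, all but Egr3 and Fosb. The median log2 difference over the 17 was 0.13 (all genes 0.05), with 6 higher and 0 lower at an unadjusted p under 0.05, against 16% and 7.49% of all genes. Nr4a1 was at 17.2 to 30.5 FPKM in the saline light and at 22.5 to 45.8 in the saline dark libraries, which overlapped, with the highest value at ZT15. Its saline log2 difference was 0.38. Arc gave 0.10, Fos -0.06 and Dusp1 0.05 in saline. Egr3 gave 0.43. Egr1 did not overlap in saline, at 61.1 to 85.1 FPKM in the saline light and 86.3 to 143 in the saline dark libraries, a log2 difference of 0.62.

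The difference itself, dark minus light in cocaine against the same in saline, was tested in 1 fit of 30 WT libraries. No gene passed the adjusted test (0 of 14243, 0%), and 91 had an unadjusted p under 0.05 (0.639%). Of the 17 immediate early genes 9 were among these, all with the larger difference in cocaine, against 0.344% of all genes in that direction. Nr4a1 differed by 1.36 (SE 0.30, unadjusted p = 7.63e-05, adjusted p = 0.702), Fos by 1.51 (SE 0.35, unadjusted p = 0.000166, adjusted p = 0.789), Arc by 1.52 and Dusp1 by 0.68. These were the 4 genes with the smallest p-values in that fit among those with a mean of at least 5 FPKM. Since they were chosen for their place in the cocaine comparison too, which uses the same cocaine libraries, the values describe the pattern and do not repeat it independently. In all 36 variants of the fit the difference for Nr4a1 lay between 1.17 and 1.51.

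Drd2, the targeted gene, was at 87.9 to 229 FPKM in the light and at 81.1 to 299.7 in the dark cocaine libraries labelled iMSN-D2RKO, against 118 to 166 and 99.1 to 304 in WT. The level of the whole gene therefore did not separate the genotypes, and which part of it is deleted was not examined here. Of these iMSN-D2RKO cocaine libraries 2 of 9 dark and 1 of 6 light ones were set apart, against 3 of 9 and 0 of 6 in WT cocaine. The part of this in the differences between genotypes was not tested. In the iMSN-D2RKO libraries Nr4a1 was at 37.4 to 54.5 FPKM in the light and at 50.04 to 126 in the dark libraries. Its ranges overlapped slightly, with all light values above the WT light ones, with a log2 difference of 0.87. Arc gave 0.96, Fos 0.94, Egr1 0.91 and Egr2 1.28, and 9 of the 17 genes were higher at an unadjusted p under 0.05, against 3.74% of all genes. The difference between genotypes for Nr4a1 was 0.87 (unadjusted p = 0.00753, adjusted p = 0.873). Over all genes 0 passed the adjusted test of that difference (0%), 199 the unadjusted one (1.4%), and of the 17 genes Nr4a1 was larger and Fosb smaller in WT at that level. The other genes with the smallest p-values there were Kcns2, a silent subunit of potassium channels, Pdss2, an enzyme of ubiquinone synthesis, and Dmkn, with differences of -0.55, 0.39 and -0.74.

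Markers of cortex, a tissue next to the punch in which immediate early genes are also expressed, were watched beside these values. All 5 markers, Slc17a7 and Neurod6 among them, were above 0 in dark minus light, with a median log2 difference of 0.80, and 1 had an unadjusted p under 0.05, against 11.2% of all genes. The median was 0.50 without ZT11 replicate 1. By hour it was -0.14 at ZT15 (1 of 5 above 0), 1.10 at ZT19 (4 above 0, 1 of them called higher, against 22.4% of all genes) and 1.28 at ZT23 (5 above 0). Their summed FPKM was 18.2 to 275 in the light (median 102) and 28.1 to 288 in the dark (median 118), so the ranges overlapped almost fully. Slc17a7, the vesicular glutamate transporter of cortical neurons, was at 16.3 to 228 FPKM in the light and at 22.1 to 233 in the dark. Relative to the mean of the light libraries the median of the 5 was lowest in ZT7 replicate 3 (-1.66), ZT11 replicate 1 (-1.60) and ZT15 replicate 3 (-1.14). It was 1.11 and 1.71 in ZT11 replicates 2 and 3. The cortex markers had a median of 0.25 in saline, 0.36 in cocaine without the set-apart libraries and -0.28 in the libraries labelled iMSN-D2RKO after cocaine, where the immediate early genes had 0.55. Their median difference between treatments was 0.55 and between genotypes 1.07, both larger in WT cocaine. Beyond these values, the part of cortex in the differences was not tested.

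The other 5 of the 12 genes were Tiparp, Bcl6, Mfap3, Fam114a2 and Fxyd2. Tiparp, a mono-ADP-ribosyltransferase induced by the aryl hydrocarbon receptor, was at 2.87 to 4.39 FPKM in the light and at 5.502 to 12.1 in the dark, without overlap (log2 difference 0.80, SE 0.15, adjusted p = 0.128, saline 0.35). Bcl6, a transcriptional repressor, was at 5.11 to 8.43 and at 8.55 to 13.7 FPKM, also without overlap (0.52, SE 0.12, adjusted p = 0.224). Mfap3 was at 5.21 to 6.57 and at 6.67 to 12.7 FPKM without overlap (0.61), and Fam114a2 gave 0.47. Fxyd2, a regulatory subunit of the sodium pump, showed another course. It was at 17.4 to 35.5 FPKM in the light, at 46.3, 32.9 and 26.1 at ZT15, at 80.6, 112 and 85.3 at ZT19, and at 59.9, 70.2 and 80.8 at ZT23. All ZT19 and ZT23 libraries, set apart or not, lay above the light ones, and saline gave nearly the same difference (1.22 in cocaine, SE 0.29, and 1.11 in saline).

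On the lower side no gene was called, and the smallest p-values belonged to genes of mixed function. Cirbp, which encodes a cold-inducible RNA-binding protein and follows body temperature, was at 76.7, 68.8 and 80.6 FPKM at ZT7 and at 64.9, 72.5 and 72.6 at ZT11. In the dark it was at 49.99, 65.6 and 25.4 at ZT15, at 25.0, 43.3 and 18.2 at ZT19, and at 38.2, 44.0 and 20.0 at ZT23. Only ZT15 replicate 2 reached the light values, and the lowest values were those of the set-apart libraries. The log2 difference was -1.08 (SE 0.24, adjusted p = 0.224), -0.75 when the set-apart libraries were dropped, and in saline, where the phases did not overlap, it was also -0.75. Rbm3, its relative, gave -0.26 (SE 0.14). At ZT19 both fell, Cirbp by 1.39 and Rbm3 by 0.59 on the log2 scale (adjusted p = 0.00512 and 0.00788).

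Lst1, a small leukocyte protein, was at 5.52 to 10.5 FPKM in the light and at 1.79 to 7.23 in the dark (log2 difference -0.999, SE 0.20, adjusted p = 0.179). Casp9, the initiator caspase of the mitochondrial pathway, was the only one of the 12 without overlap, at 8.52 to 9.86 against 4.92 to 8.37 FPKM (-0.44, SE 0.12, adjusted p = 0.242). Cdkn1a, the cell cycle inhibitor p21 and a glucocorticoid target, gave -0.81, Rasl11b -0.84, Tmem203 -0.60, Smim20 -0.50, Epdr1 -0.40 and Pxmp4 -0.40, each with an adjusted p from 0.224 to 0.242. Rpl34 gave -2.09 (SE 0.50), from 16.97 to 38.6 FPKM in the light to 1.20 to 19.6 in the dark, but ribosomal protein genes have near-identical pseudogene copies that may take part of the reads, so this value is uncertain.

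Chaperone genes had their largest differences at ZT19. Of 22 heat shock chaperones and co-chaperones, 15 were higher and 0 lower at an unadjusted p under 0.05, against 11.2% and 7.47% of all genes, with a median log2 difference of 0.49. The median was 0.05 at ZT15, 0.79 at ZT19 and 0.57 at ZT23. At ZT19 17 of 22 rose and 0 fell, against 22.4% and 13.6% of all genes. Hsp90ab1, a constitutive HSP90, was at 512 to 764 FPKM in the light and at 1373, 1492 and 1518 at ZT19 (log2 difference 1.38, SE 0.19, adjusted p = 0.000856), and Chordc1, a co-chaperone of HSP90, rose by 1.35. ZT19 replicate 2, ZT23 replicate 1 and ZT23 replicate 2, which are not set apart, had list medians 0.86, 0.50 and 0.48 above the light mean, against 0.54, 0.92 and 0.84 in the set-apart ones. Saline gave a median of 0.38 with 17 of 22 higher at an unadjusted p under 0.05, against 16% of all genes. The chaperones of the endoplasmic reticulum (17 genes) gave a median of 0.37 in cocaine and 0.30 in saline. At ZT19 11 of these 17 rose and 0 fell, against 22.4% and 13.6% of all genes. Hsp90b1 (GRP94) with 1.53 and Calr (calreticulin) with 1.26 led them.

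**Figure D3:**
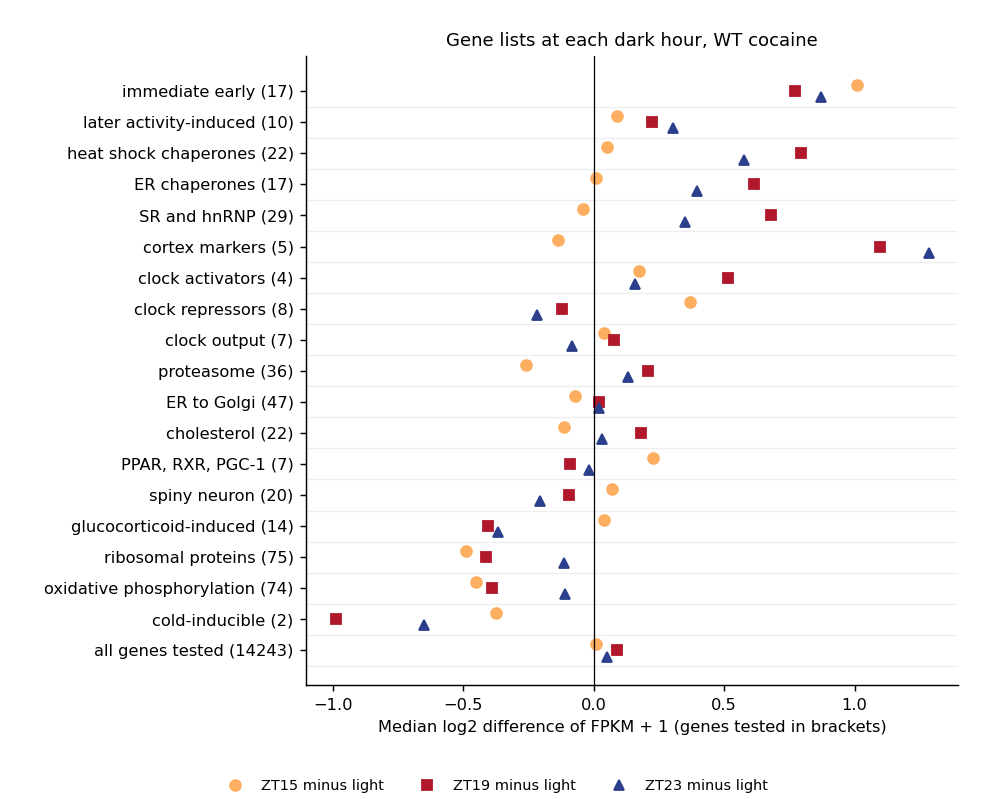
Median log2 difference of FPKM + 1 from the light libraries for 18 gene lists and all genes, WT cocaine, at ZT15 (circles), ZT19 (squares) and ZT23 (triangles), which share the light libraries. Immediate early genes stand at 0.77 or more at each hour, while heat shock chaperones go from 0.05 at ZT15 to 0.79 at ZT19. The number of genes tested stands in brackets.

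SR and hnRNP splicing factors (29 genes) gave a median of 0.27 in cocaine and 0.27 in saline, with 10 higher and 2 lower at an unadjusted p under 0.05, against 11.2% and 7.47% of all genes. At ZT19 18 rose and 3 fell, against 22.4% and 13.6% of all genes. Hnrnpf rose from 5.29 to 5.82 FPKM in the light to 15.7, 18.3 and 16.7 at ZT19 (log2 difference 1.46, SE 0.19), and Hnrnpa0 fell by 1.07 on the log2 scale. Without the set-apart libraries the median of dark minus light was 0.09, close to the 0.03 of all genes.

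Ribosomal protein genes (75) and nuclear genes of oxidative phosphorylation (74) had medians of -0.32 and -0.34. At an unadjusted p under 0.05, 23 ribosomal genes were lower and 1 higher, and 23 oxidative phosphorylation genes were lower and 0 higher, against 7.47% and 11.2% of all genes. The lowest values of both lists were those of 4 dark libraries. The ribosomal list stood at -1.46 in ZT15 replicate 3, -0.68 and -0.54 in ZT19 replicates 1 and 3, and -0.50 in ZT23 replicate 3 relative to the light mean, and at -0.06 to 0.33 in the other 5 dark libraries. Oxidative phosphorylation stood at -1.41, -0.70, -0.64 and -0.58 in the same 4 and at -0.10 to 0.31 in the others. The 4 also had the lowest relative depths, 0.357 to 0.675 against 0.767 to 1.31 in the other 11, and the part of depth was not tested. Without the set-apart libraries both medians were -0.16. With ZT15 replicate 3 and ZT19 replicate 2 left out as well, a setting chosen after seeing the data, they turned to 0.08 and 0.07. ZT19 replicate 2 is not 1 of the 4 libraries, and no fit left out those 4 alone. Leaving out ZT15 replicate 3 alone gave -0.18 and -0.17.

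Glucocorticoid-induced genes (14) had a median of -0.31 (-0.13 with the set-apart libraries dropped), with 2 higher and 4 lower at an unadjusted p under 0.05, against 11.2% and 7.47%. Mt2, a metallothionein, was at 356 to 548 FPKM in the light and at 94.3 to 592 in the dark (log2 difference -1.18, saline -1.12, and -0.76 in cocaine with the set-apart libraries dropped). At ZT15 it was at 435, 592 and 94.3, so that this hour held both the highest and the lowest dark value. Errfi1, a feedback inhibitor of EGF receptors, gave 0.42, and 0.26 with those libraries dropped. Later activity-induced genes (10) had a median of 0.28 (saline 0.22). Dusp6, a phosphatase of ERK, was at 9.47 to 15.2 FPKM in the light and 11.4 to 34.6 in the dark (log2 difference 0.77, saline 0.32), while Gadd45b gave -0.77. Homer1 and Bdnf gave 0.38 and 0.52, Nptx2 -0.66, and with the set-apart libraries dropped the values were 0.04, 0.30 and -0.28.

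Medium spiny neuron genes (20) had a median of -0.07 (7 above 0), with 1 higher and 3 lower at an unadjusted p under 0.05, against 11.2% and 7.47% of all genes, and a median of -0.15 with the set-apart libraries dropped. In WT saline the median was 0.17 (14 above 0), with 6 higher and 0 lower, against 16% and 7.49%, and in iMSN-D2RKO cocaine it was 0.13 (18 above 0). Rgs2, an inhibitor of G protein signalling, gave 0.61 (0.40 with those libraries dropped), and Adora2a, the adenosine receptor of indirect pathway neurons, -0.75. Adora2a, Gabrd (a GABA-A receptor subunit) and Kcnd1 (a potassium channel) are genes that the study chose on these samples as targets of PPAR gamma, so their direction is no independent evidence. Adora2a was at 188 to 312 FPKM in the light, at 277, 178 and 188 at ZT15, at 82.4, 81.2 and 116 at ZT19, and at 144, 183 and 81.8 at ZT23. Gabrd gave -0.72 and Kcnd1 -0.25, and saline values were -0.37, -0.33 and -0.11. Adora2a gave -0.48, Gabrd -0.49 and Kcnd1 -0.12 when the set-apart libraries were left out. In iMSN-D2RKO cocaine the median of these 3 genes was 0.02 (2 above 0). Their median difference between genotypes was -0.74, lower in WT. Of the 3, 2 had an unadjusted p under 0.05 there, against 1.4% of all genes, and 0 passed the adjusted test. The choice of these genes on the same samples limits this comparison too. Of 8 genes of PPAR, RXR and PGC-1 7 were tested, and Pparg, the gene of PPAR gamma, was not among them. These 7 had a median of 0.05 in dark minus light and 0 at an unadjusted p under 0.05. By hour, 7 were above 0 at ZT15 and 1 at ZT19. At ZT19 3 were called lower and 0 higher, against 13.6% and 22.4% of all genes. Cholesterol synthesis (22 genes, -0.02), proteasome (36, 0.04) and ER to Golgi transport (47, 0.04, and -0.05 when libraries were rescaled to the same upper quartile) had medians near that of all genes.

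**Figure D4:**
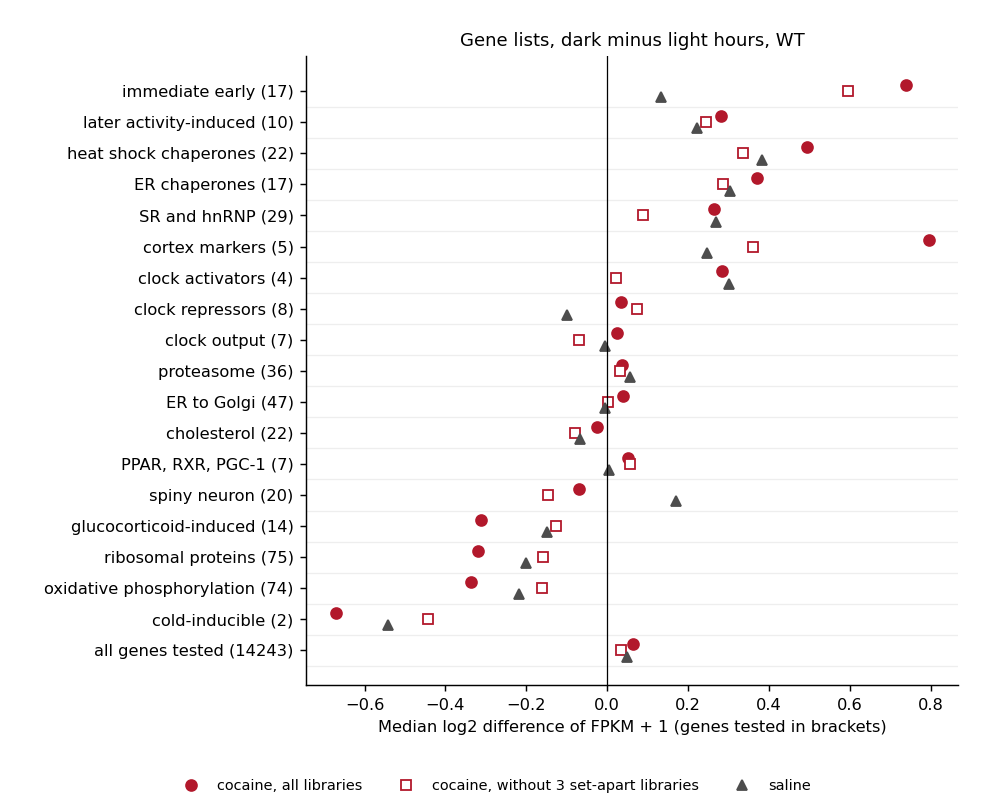
Median log2 difference of FPKM + 1, dark minus light, for 18 gene lists and all genes in WT. Filled circles are cocaine, open squares cocaine without the 3 set-apart libraries and triangles saline, with the number of genes tested in brackets. Immediate early genes stand at 0.74 and 0.59 in cocaine and at 0.13 in saline.

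Of the clock genes, Arntl, which encodes BMAL1, was at 8.59 to 12.9 FPKM in the light, at 13.6, 9.21 and 11.04 at ZT15, at 14.98, 17.04 and 26.2 at ZT19 and at 13.6, 15.4 and 23.3 at ZT23. Its log2 difference was 0.62 in cocaine, 0.40 with the set-apart libraries dropped and 0.52 in saline. Per2 was at 21.4, 13.3 and 47.98 FPKM at ZT15 against 7.92 to 14.5 in the light, with replicate 2 inside the light values. Per1 was at 51.6, 42.99 and 104 FPKM at ZT15 against 28 to 38.1 in the light, and all 3 lay above. Cry1 gave 0.33 in cocaine and 0.27 in saline. Dbp, a PAR bZIP factor under direct clock control, was at 158 to 209 FPKM in the light, at 151 to 221 at ZT15 and at 58.0 to 113 at ZT19 and ZT23. The log2 difference for Dbp was -0.79 in cocaine, -0.44 with the set-apart libraries dropped and -0.56 in saline. Nr1d1, the REV-ERB alpha gene, was at 79.7 to 91.0 FPKM in the light and at 42.3, 43.1 and 50.5 at ZT23, where it fell by 0.88 on the log2 scale (adjusted p = 0.0457).

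**Figure D5:**
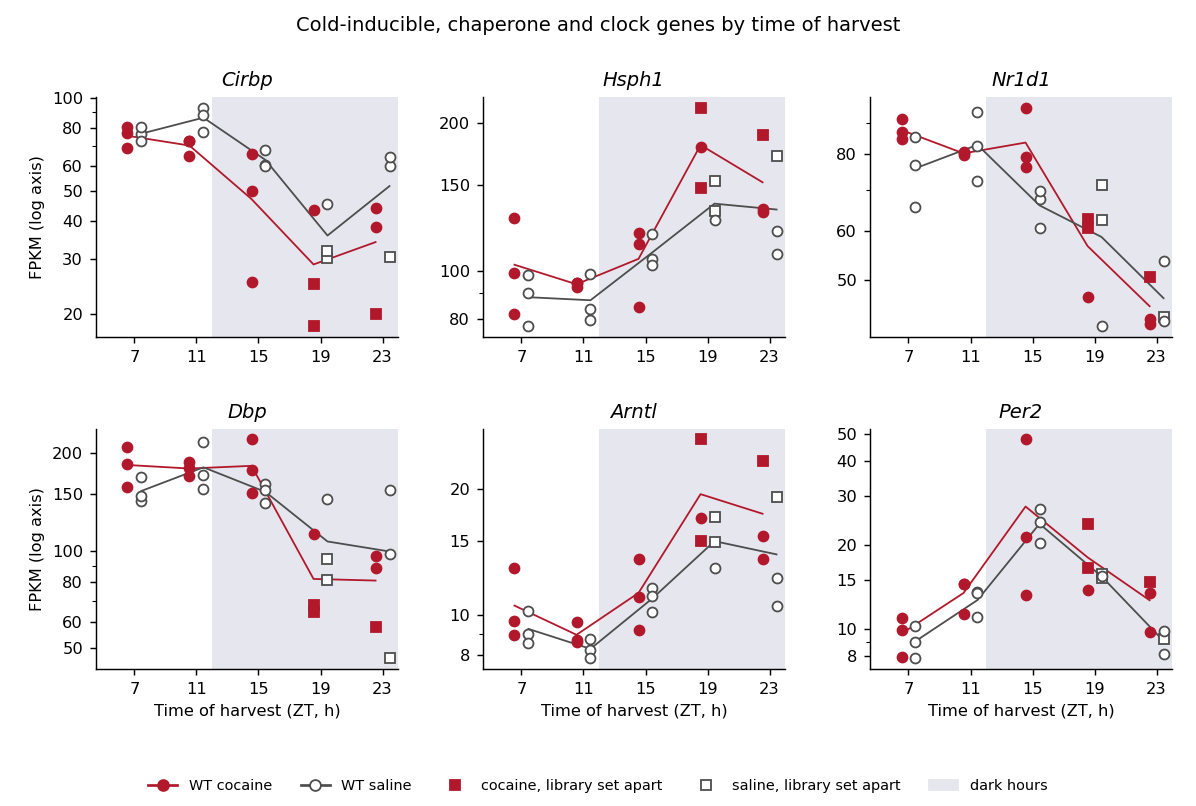
FPKM (log axis) of Cirbp, Hsph1, Nr1d1, Dbp, Arntl and Per2 by time of harvest, 1 symbol per library and lines through the means of 3 libraries. Cocaine is filled and saline open. Nr1d1 in cocaine lies at 42.3 to 50.5 at ZT23 against 79.7 to 91.0 in the light hours (unshaded). Squares are the set-apart libraries.

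Hour by hour, ZT19 held nearly all calls. There 5135 genes passed the adjusted test (36.1%), 3196 higher (22.4%) and 1939 lower (13.6%). With libraries rescaled to the same upper quartile the split was 2205 higher and 2883 lower, and the median over all genes went from 0.09 to -0.05. Without the set-apart libraries 1 library of ZT19 was left, assumed to vary like the others, and 2640 genes were called, of which 2293 were among the 5135. S100a11, a calcium-binding protein, was at 29.4, 37.2 and 24.9 FPKM at ZT19 against 3.44 to 5.42 in the light and 2.28 to 11.3 at ZT15 and ZT23 (log2 difference 2.53, adjusted p = 0.000493). In saline it was at 34.4 and 16.3 in the set-apart ZT19 libraries and at 5.33 in the third. Hmgn5, a nucleosome-binding protein, was at 16.7, 31.7 and 17.7 FPKM at ZT19 against 1.52 to 2.87 in the light, and at 21.0, 16.7 and 3.53 in saline at ZT19. In the set-apart libraries of ZT23 S100a11 was at 11.3 FPKM in cocaine and 18.7 in saline, and Hmgn5 at 16.5 and 14.4. Whether these levels belong to the hour or to the libraries was not tested.

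At ZT23 3 genes fell (0.0211%), Rnf26, Nr1d1 and Mir1188, against 5.41% lower at an unadjusted p under 0.05. Rnf26, an E3 ubiquitin ligase of endosomes, was at 12.2 to 14.7 FPKM in the light, at 11.5 to 12.7 at ZT15, at 5.52, 6.47 and 7.93 at ZT19 and at 5.63, 6.07 and 4.59 at ZT23. All ZT19 and ZT23 libraries lay below all light ones, and the log2 difference at ZT23 was -1.12 (SE 0.12, adjusted p = 0.00294). In saline Rnf26 was at 8.92 to 11.4 FPKM in the light and at 4.60 to 6.28 in the dark, with ZT15 already at 5.42 to 6.13, and there it was 1 of 3 genes that fell (0.0211%), beside Emc10 and Olfr287. The call of Nr1d1 at ZT23 was lost in 13 of 21 variants of the fit, with adjusted p-values up to 0.188. Mir1188 is listed at 0 in all 6 libraries of ZT19 and ZT23, at 63.9 to 249 FPKM in the light and at 208, 73.5 and 1544 at ZT15. Values of so short a transcript can be failed estimates, and no fold is given.

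Between the light hours, the genes with the smallest p-values were Pisd-ps1, at 51.6 to 73.8 FPKM at ZT7 and 18.5 to 25.4 at ZT11, 8430419L09Rik, at 38.5 to 53.6 and 70.1 to 74.7, Pop4, a subunit of ribonuclease P, at 20.4 to 21.2 and 5.33 to 12.4, and Unc93b1, a trafficking protein of Toll-like receptors, at 10.4 to 12.6 and 8.31 to 8.87. Each kept its ZT7 and ZT11 libraries apart, and none passed the adjusted test. At ZT15 Pisd-ps1, which is annotated as a pseudogene and may share reads with Pisd, lay between both light hours, at 30.04 to 50.1 FPKM.

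Markers of other cell types overlapped between phases. Summed FPKM of oligodendrocyte markers was 2409 to 6449 in the light and 2398 to 3985 in the dark, of astrocytes 654 to 820 and 688 to 919, of microglia 289 to 425 and 193 to 380, and of endothelium 143 to 188 and 114 to 190. Interneuron markers summed to 998 to 1253 in the light and 723 to 2343 in the dark. Choroid plexus markers summed to 6.27 to 337 in the light, where ZT11 replicate 1 alone was high with Ttr at 315 FPKM, and to 6.596 to 22.1 in the dark.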

How the data were processed

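RNA of ventral striatum punches was sequenced from poly(A) libraries. The authors aligned reads to mm10 with TopHat and Bowtie, quantified genes with Cufflinks and Cuffquant and deposited FPKM values normalised across libraries by Cuffnorm. Per the submitters' processing notes CASAVA 1.8.2 was used before that. The deposited table held 24138 genes and 72 columns, 6 of them the ZT3 libraries listed again, so 66 libraries were distinct, and 0 columns lacked a sample. No counts were used here, so relative depth was estimated from 1439 rarely detected genes and no counting interval is given. The table gave no coordinates, and positions and promoters came from RefSeq GRCm38.p6.

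Genes with an FPKM of at least 1 in at least 1 of the 15 libraries were compared on log2(FPKM + 1) with limma 3.58.1 in R 4.3.3 (moderated test with trend, two-sided, Benjamini-Hochberg adjustment over 14243 genes, threshold 0.05). A fold on this scale understates the change of low genes. The main fit held 1 mean per phase. ZT15, ZT19, ZT23 and ZT11 minus ZT7 came from a fit with 1 mean per time point, and the differences between treatments or genotypes from interaction terms over 30 libraries. Tables were made with Python 3.11.15, pandas 2.3.3 and numpy 2.4.6, and figures with matplotlib 3.10.9.

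Named were genes of the lists, and otherwise the 12 genes with the smallest p in each direction and, among those past the threshold, the 8 with the largest change, with a mean of at least 5 FPKM and a symbol naming 1 gene, and the 4 with the smallest p of each other test. Olfr287 was named after its values were seen. Some genes that this rule names are not reported here. The libraries, lists and genes were chosen with earlier results of these data known. In simulated data with 200 genes changed by 1 on the log2 scale, the dark minus light fit called 158 of them and 9 others. Noise there was independent between genes and libraries, without the axis of the set-apart libraries, and only genes at about 5 FPKM or more were changed. The share called therefore does not give the power in the real libraries. The alternatives tried were the pseudocount, the filter, rescaling to the upper quartile, the replicate block, the library score, and leaving out libraries or time points. The libraries were not tied to animals or batches by the labels.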

Additional observations from a re-analysis of the deposited data

Results flagged for a closer look

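In 5 of 70 groups of libraries, over 35 named genes, 1 library stood apart from the rest of its phase. The measure was Dixon's ratio of gap to range, with critical values of 0.625 for 6 libraries and 0.493 for 9. Chance gives about 1 in 20 groups where values are normally distributed and groups independent. The genes here share libraries and a phase mixes hours, so that rate is only a rough guide. Egr1 was at 491.3 FPKM in ZT19 replicate 3, with the next dark library at 265.8. Egr2 was at 18.57 FPKM in the same library, with the next at 10.53. Egr3 was at 113.4 FPKM in ZT7 replicate 2, with the next light library at 62.98, and Fosb was at 8.962 in that library, with the next at 4.934. Mfap3 was at 6.571 FPKM in ZT7 replicate 1, with the next light library at 5.685.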

How the results depend on the processing

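For dark minus light in WT cocaine, the 1 called gene became 0 when the set-apart libraries were dropped, when the library score was a covariate, and without ZT7, ZT11 or ZT23. It became 2 with a replicate block, 7 without ZT19, 4740 without ZT15, 733 with 1 mean per time point, 884 with the spread of all 66 libraries, and, in settings chosen after seeing the data, 5 without the set-apart and the 2 intermediate libraries and 792 with 1 mean per time point and no set-apart libraries. Leaving out 1 library gave 0 to 2 calls (0 without ZT7 replicate 2 or 3 or ZT11 replicate 1 or 2, and 2 without ZT15 replicate 1 or 3 or ZT19 replicate 1). Nr4a1 had log2 differences from 1.57 to 1.89 in 32 settings and passed the threshold in 23, with adjusted p-values of 0.104 when the set-apart libraries were dropped, 0.173 under the score (log2 difference 1.75), and 0.357, 0.493 and 0.281 without ZT7 (1.79), ZT11 (1.69) or ZT23 (1.70).

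At ZT19 the 5135 calls became 2640 when the set-apart libraries were dropped and 549 under the score, and 3140 to 6445 without 1 library (3140 without ZT19 replicate 3 and 3175 without replicate 1). At ZT23 the 3 calls became 23 under a stricter filter, 7 after rescaling to the upper quartile and 9 with the score, and 2 to 79 without 1 library (79 without ZT15 replicate 3, 17 and 12 without ZT19 replicates 3 and 2). In saline the 3 calls became 5 with a pseudocount of 0.1, 8 after rescaling, 11 when the set-apart libraries were dropped and 9 under the score, and 1 to 6 without 1 library (1 without ZT7 replicate 2, ZT11 replicate 2, ZT15 replicate 1 or 2 or ZT19 replicate 2, and 6 without ZT23 replicate 2). At ZT15 leaving out 1 library gave 0 to 3 calls (3 without ZT19 replicate 3 and 1 without ZT15 replicate 1). ZT11 minus ZT7 and both interactions gave 0 calls in the settings run. The causes were not tested.

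Egr3 turned from -0.02 to 0.149, 0.026, 0.070, 0.012 and 0.0082 without ZT7 replicate 2, ZT15 replicate 2, ZT19 replicate 2 and ZT23 replicates 1 and 2, to 0.175 without ZT7 and to 0.030 without ZT23. Fosb turned from -0.10 to 0.020 under the score, 0.061 without ZT7 replicate 2 (-0.150 to 0.061 over all libraries left out in turn), 0.094 without ZT7, 0.025 without ZT19 and 0.029 without the set-apart and intermediate libraries. Egr4 turned to -0.184 without ZT15 and Ier2 to -0.0098 without ZT23. Of 1899 values for named genes 1742 kept direction and side of the threshold, 29 lost and 114 gained the threshold and 14 turned.

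Same-numbered libraries showed no common deviation (30 pairs, r from -0.369 to 0.596, median -0.04 against 0.02 for other numbers). Of 15 libraries 4 correlated best with their own number. This check cannot exclude a pairing, since the axis of the set-apart libraries held 43.6% of the variance within groups. With the replicate block 5357 genes were called at ZT19 and 2 at ZT23.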
